A study of Mus musculus with 2 samples.

Results

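The kelch, leiomodin and tropomodulin genes of the muscle thin filament were examined in the gastrocnemius, a calf muscle of mainly fast fibres in the mouse. The set was given as a list of gene symbols, by a rule that uses no measured value, and holds 10 genes of the 55536 in the tables. They are 6 kelch genes (Klhl30, Klhl31, Klhl33, Klhl38, Klhl40 and Klhl41), 2 leiomodins (Lmod2 and Lmod3) and 2 tropomodulins (Tmod1 and Tmod4). Total RNA was sequenced from 2 adult female B6CASTF1/J mice, hybrids described in the labels as B6 X Cast, aged 8 to 10 months. The labels name no treatment or transgene, and the animals form a single group. Replicate 1 is animal 1 and replicate 2 is animal 3 of the labels. Both carry the same donor identifier, and nothing beyond the animal numbers says that the tissues came from separate mice. With 1 group of 2 libraries there is no comparison between conditions, so values are given for each animal with the SD (n = 2) and no p-value.

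The thin filament of muscle is an actin polymer of fixed length. Its pointed end, in the middle of the sarcomere, is capped by tropomodulins, which bind actin and tropomyosin and slow the loss and gain of subunits. Leiomodins are related proteins that lack the capping function of tropomodulins and instead start and lengthen filaments. Kelch proteins of the Klhl family pair a BTB domain, which binds the scaffold Cul3 of a ubiquitin ligase, with a kelch propeller that holds the substrate. In muscle some of them are instead known for protecting their partners: Klhl40 keeps Lmod3 and the giant thin filament protein nebulin stable, and Klhl41 acts on nebulin. Loss of KLHL40, KLHL41 or LMOD3 causes nemaline myopathy in people, a disease of rod-like thin filament aggregates.

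Related members share gene structure, and coding exons that match in length can be compared base by base. They are shown because reads from one copy could be counted for the other where the letters are the same. Each pair below is read from the GENCODE M21 transcripts of GRCm38 (mm10), 5′ to 3′ on the gene's strand, with the bases that differ within a pair in capitals. In Tmod1 and Tmod4, which have 9 coding exons each and 6 of equal length, coding exon 5 has 131 bases and lies at chr4:46092139-46092269 (plus strand) and chr3:95127589-95127719 (plus strand).
Tmod1 coding exon 5: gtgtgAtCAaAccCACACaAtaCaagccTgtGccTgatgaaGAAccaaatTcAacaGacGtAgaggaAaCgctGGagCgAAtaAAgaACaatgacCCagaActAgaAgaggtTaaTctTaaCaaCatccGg
Tmod4 coding exon 5: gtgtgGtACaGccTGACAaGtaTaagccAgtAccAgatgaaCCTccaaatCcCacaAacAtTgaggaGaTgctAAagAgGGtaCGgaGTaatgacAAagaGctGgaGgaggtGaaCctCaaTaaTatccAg
The letters of these exons were the same at 87 of 131 positions, 66.4%, and the longest run without a difference was 6 bases. Klhl40 and Klhl41 have 6 coding exons each, and their last 4 are equal in length. Coding exon 5 has 147 bases and lies at chr9:121782530-121782676 (plus strand) and chr2:69679684-69679830 (plus strand), within the part that encodes the kelch propeller.
Klhl40 coding exon 5: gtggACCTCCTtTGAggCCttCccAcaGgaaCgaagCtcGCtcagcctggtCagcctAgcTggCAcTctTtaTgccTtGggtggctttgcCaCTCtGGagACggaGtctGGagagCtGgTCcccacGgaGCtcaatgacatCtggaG
Klhl41 coding exon 5: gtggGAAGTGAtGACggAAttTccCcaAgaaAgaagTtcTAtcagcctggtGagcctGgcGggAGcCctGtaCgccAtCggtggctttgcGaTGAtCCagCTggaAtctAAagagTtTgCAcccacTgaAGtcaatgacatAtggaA
These were the same at 98 of 147 positions, 66.7%, with 11 bases in the longest run. Of the 4 pairs of equal length this was the most alike, and coding exon 3, at 50%, was the least. Lmod2 and Lmod3 have 3 coding exons each, of which the last has 24 bases in both genes. It lies at chr6:24605186-24605209 (plus strand) and chr6:97238848-97238871 (minus strand).
Lmod2 coding exon 3: gtgGaaGtTccCGaAgCTctgAGA
Lmod3 coding exon 3: gtgCaaCtGccAAaGgAGctgGAG
Here 13 of 24 positions were the same. Over all pairs of equal-length coding exons the longest run without a difference was 12 bases, in coding exon 4 of the tropomodulins. Runs were not measured in exons of unequal length, which hold most of the 1650 and 1713 coding bases of Lmod2 and Lmod3. With the whole coding sequences aligned, 64.0% of aligned bases were the same in Tmod1 and Tmod4. That share was 60.5% for Klhl40 and Klhl41 and 63.7% for Lmod2 and Lmod3. The deposited posterior SD of the expected count, which rises when reads fit several genes, was 0 for all 10 members in both animals.

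Promoters of members are shown to set the sequence upstream of the start site beside the levels. A RefSeq promoter table (GRCm38.p6) gave 8 windows for 7 of the members, with Klhl33 having a pair of start sites. Each window runs from 250 bases before to 50 bases after the start site, which is counted as base 0. Both strands were searched for the E-box (CANNTG), bound by the MyoD family, for the MEF2 site, for the CArG box of serum response factor, and for the MCAT element (CATTCC) of the TEAD factors, and no matches of different motifs overlapped. The windows of Klhl41 and the upstream start of Klhl33, which hold the MEF2 matches, of Klhl40, the relative of Klhl41, and of Tmod4, the highest member, follow with the matches in capitals.
Klhl41, chr2:69669870-69670169, plus strand: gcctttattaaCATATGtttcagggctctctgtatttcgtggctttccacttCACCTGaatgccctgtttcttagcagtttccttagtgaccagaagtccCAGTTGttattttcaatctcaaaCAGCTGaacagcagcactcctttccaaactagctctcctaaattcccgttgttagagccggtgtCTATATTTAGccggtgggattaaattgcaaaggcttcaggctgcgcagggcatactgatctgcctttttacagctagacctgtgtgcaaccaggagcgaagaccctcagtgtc
Klhl40, chr9:121777357-121777656, plus strand: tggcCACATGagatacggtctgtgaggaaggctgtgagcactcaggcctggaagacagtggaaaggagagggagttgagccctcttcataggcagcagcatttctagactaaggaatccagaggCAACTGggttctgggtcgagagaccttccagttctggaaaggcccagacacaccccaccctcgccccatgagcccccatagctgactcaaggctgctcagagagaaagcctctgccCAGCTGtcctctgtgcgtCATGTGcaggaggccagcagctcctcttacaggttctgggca
Tmod4, chr3:95124264-95124563, plus strand: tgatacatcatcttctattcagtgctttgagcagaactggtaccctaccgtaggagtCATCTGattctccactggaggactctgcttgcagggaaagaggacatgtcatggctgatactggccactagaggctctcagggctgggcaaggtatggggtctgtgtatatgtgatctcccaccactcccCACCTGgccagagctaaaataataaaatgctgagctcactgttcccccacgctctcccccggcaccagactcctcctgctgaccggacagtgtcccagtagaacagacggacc
Klhl33, chr14:50897434-50897733, minus strand: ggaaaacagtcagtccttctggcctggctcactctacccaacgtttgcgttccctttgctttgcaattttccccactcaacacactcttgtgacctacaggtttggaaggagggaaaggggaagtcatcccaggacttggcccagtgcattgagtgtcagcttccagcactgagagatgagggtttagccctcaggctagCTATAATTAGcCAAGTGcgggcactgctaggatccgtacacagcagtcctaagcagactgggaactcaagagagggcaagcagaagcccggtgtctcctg
A MEF2 match lay at bases -63 to -54 of the Klhl41 window and another at -50 to -41 of the Klhl33 window, the latter 1 base from an E-box at -39 to -34. Of the 8 member windows 2 held a MEF2 match, against 3.19% of all 32851 windows in the table. E-boxes were found in 6 of 8 member windows and in 72.3% of all windows. Klhl40 and Klhl41 had 4 E-boxes each, whereas the windows of Klhl31 and Tmod1 had none. MCAT matches were found in 2 of 8 windows, those of Tmod1 and of the inner Klhl33 start site, against 14.7% of all windows. The CArG box, found in 1.63% of all windows, was in none of the 8. The RefSeq start lay 287 bases inside the GENCODE gene start for Tmod1 and 232 bases inside it for Klhl31. These matches are letters in a window, and binding was not measured.

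All 10 members were transcribed in both animals. Levels are in TPM, deposited by the authors, which divide each gene's expected count by its effective length and scale the library to 1 fixed total. At a threshold of 1 TPM in both animals 10 of 10 members were detected, against 43.9% of 22015 nuclear protein-coding genes and 19% of all gene identifiers. Summed over members the level was 1322 TPM in replicate 1 and 1190 TPM in replicate 2. As a share of all nuclear protein-coding TPM it was 0.274% in replicate 1 and 0.275% in replicate 2 (0.274% ± 0.000588, SD, n = 2). The 3 highest members, Tmod4, Klhl31 and Klhl41, held 72.0% ± 0.374 (SD, n = 2) of the summed member TPM. The kelch members as a group held 58.3% ± 0.312 of it.

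**Figure D1:**
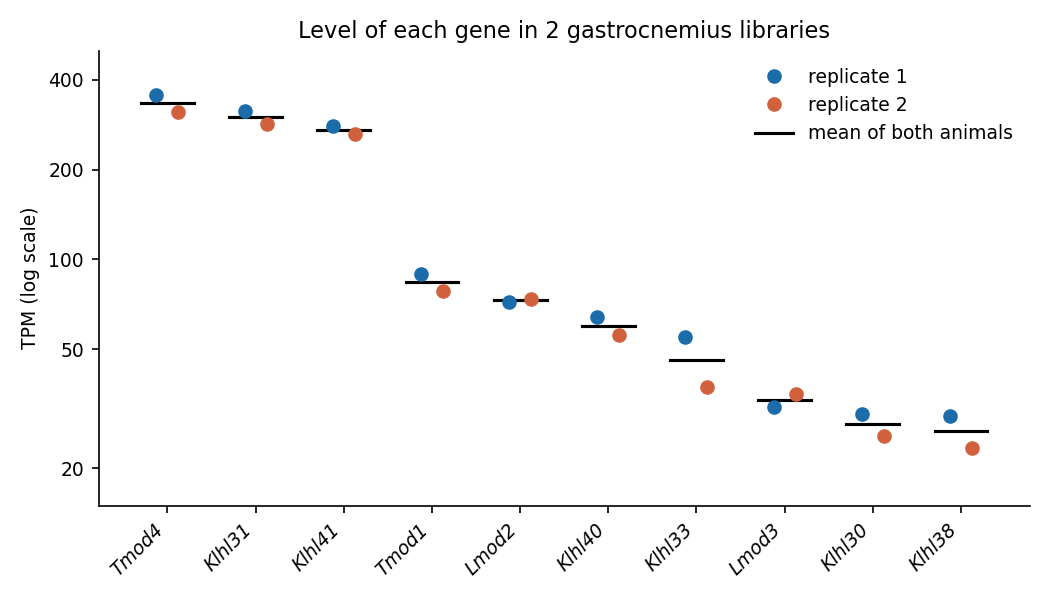
TPM (log axis) of each of the 10 genes in the gastrocnemius of replicate 1 and replicate 2, with a bar at the mean; genes are ordered by mean. Tmod4, Klhl31 and Klhl41 sit above 263 TPM in both animals and the other 7 below 90 TPM, and the points of Klhl33 lie farthest apart on the log axis.

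The order of the means was Tmod4, Klhl31, Klhl41, Tmod1, Lmod2, Klhl40, Klhl33, Lmod3, Klhl30 and Klhl38, and it was the same in each animal taken alone. Of the 9 neighbouring pairs in that order 7 did not overlap between the animals. The exceptions were Tmod4 with Klhl31 and Klhl30 with Klhl38. The widest step lay between Klhl41 and Tmod1, whose means differed 3.23-fold. Levels of bulk tissue cannot tell fewer cells of a type from less RNA per cell.

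Tropomodulins were led by Tmod4 (chr3:95124476-95129209, plus strand), the isoform known as the skeletal muscle tropomodulin. It stood at 355 TPM in replicate 1 and 312 TPM in replicate 2 (334 ± 30.4 TPM), from 11255 and 11146 expected counts, and ranked 140th among nuclear protein-coding genes. Tmod1 (chr4:46038935-46116032, plus strand), the isoform known from heart, red blood cells and skeletal muscle, stood at 89.7 and 78.2 TPM (83.9 ± 8.18 TPM). Tmod4 exceeded Tmod1 by a factor of 3.96 in replicate 1 and 3.99 in replicate 2. This ratio differed less between the animals than either level did, but unlike the levels it does not move with library scaling. By the second of the deposited quantifications, described with the transcript shares, it was 3.69 and 3.98. Of 9 heart muscle markers 3 reached 1 TPM in both animals (Myh6, Myl4 and Tnnt2), and Tnni3 had 0.84 and 1.26 TPM. Their list summed to 62.7 and 60.1 TPM and was mostly Myh6, whose level depended on the quantification. Myh6 had 55.9 and 53.2 TPM by the first and 20.6 and 21.1 TPM by the second. The defining atrial markers Nppa and Myl7 had at most 4 counts. Of the erythroid markers the globins were present, and the list summed to 206 and 155 TPM. Slc4a1 and Epb42, which mark the red cell membrane, had 0 counts in both animals.

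Of the tropomodulins and leiomodins outside the set, Tmod3, the widely expressed isoform, was highest. It had 6.64 TPM in replicate 1 and 5.29 TPM in replicate 2, so Tmod4 exceeded it 53.5-fold and 59.0-fold. The smooth muscle leiomodin Lmod1 had 1.84 and 1.19 TPM, and the neuronal Tmod2 had 1.95 and 0.89 TPM. By scaled counts all 3 were lower in replicate 2 by more than the 25% criterion defined with the differences between animals, with a median log2 ratio of -0.56. Schwann cell markers were lower in replicate 2 as well, with 5 of 5 tested past 2-fold. The list of 6 summed to 55.3 TPM in replicate 1 and 12.2 TPM in replicate 2. Of 6 neuron markers only Stmn2 was detected, and it was not lower in replicate 2 (1.32 and 1.6 TPM, log2 ratio 0.15). Smooth muscle markers, 4 of 6 detected, summed to 159 and 156 TPM, of which Synpo2 gave 102 and 108 TPM. Myh11, the defining smooth muscle myosin, had 7.09 and 4.77 TPM (log2 ratio -0.32), and Acta2 had 18.7 and 14.7 TPM (-0.10). Smtn (0.01) and Synpo2 (0.26) went the other way, and the median log2 ratio of the 4 tested was -0.04. The part of any of these cell types in the low levels of Tmod3, Lmod1 and Tmod2 was not tested.

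Leiomodins were lower than the tropomodulins. Lmod2 (chr6:24597762-24605414, plus strand), best known from the heart, stood at 72.1 TPM in replicate 1 and 73.7 TPM in replicate 2 (72.9 ± 1.09 TPM), which overlapped no neighbour in the order. Lmod3 (chr6:97238534-97252759, minus strand), the leiomodin of skeletal muscle disease, stood at 32.0 and 35.5 TPM (33.8 ± 2.47 TPM). Lmod2 was therefore higher than Lmod3 in both animals, by factors of 2.25 and 2.07. Of genes known from the heart, Actc1, which was not on the heart marker list, had 62.2 and 82.3 TPM. Myh6 had 55.9 and 53.2 TPM, or 20.6 and 21.1 TPM by the second quantification. The part of Actc1 and Myh6 expressing cells in the Lmod2 level was not tested. Lmod2 and Lmod3 were also the only members whose TPM was higher in replicate 2 than in replicate 1. Summed leiomodin TPM was 104 and 109, and summed tropomodulin TPM of the set was 445 and 390.

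Among kelch genes, Klhl31 (chr9:77636500-77660127, plus strand) had the highest level, 315 TPM in replicate 1 and 284 TPM in replicate 2 (299 ± 21.6 TPM). Its partner in muscle is filamin C, and Klhl31 exceeded Flnc by factors of 1.75 and 1.72. With 56473 and 58442 counts over an effective length of 6394 bases, Klhl31 also gave the most reads of any member. Klhl41 (chr2:69670120-69684230, plus strand) followed with 279 and 264 TPM (271 ± 10.5 TPM). Nrap, a thin filament assembly protein that binds Klhl41, was 1.32-fold higher than Klhl41 in each animal. Its relative Klhl40 (chr9:121777607-121783818, plus strand) had 64.0 and 55.9 TPM (a mean of 60.0 TPM, SD 5.73), so Klhl41 exceeded its closest relative in the set by factors of 4.35 and 4.72.

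The other kelch members formed the low end. Klhl33 (chr14:50888582-50897507, minus strand) had 55.0 TPM in replicate 1 and 37.3 TPM in replicate 2 (46.2 ± 12.5 TPM), the widest spread relative to the mean in the set, at 27.1%. Klhl30 (chr1:91351016-91362416, plus strand) had 30.4 and 25.7 TPM (28.1 ± 3.34 TPM). Klhl38 (chr15:58314573-58324169, minus strand) had 29.9 and 23.4 TPM (26.6 ± 4.62 TPM). All 3 were lower in replicate 2 on the TPM scale, as 8 of the 10 members were, and the values of Klhl30 and Klhl38 overlapped.

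Against the wider kelch family the members stood at the top. Klhl31 and Klhl41 ranked 1 and 2 of 49 kelch genes, and Klhl40, Klhl33, Klhl30 and Klhl38 ranked 4, 7, 9 and 10. Between them lay Klhl24 (64.5 ± 3.85 TPM), Klhl21 (58.5 ± 0.0354 TPM), Ivns1abp (51.1 ± 4.14 TPM) and Kbtbd12 (37.8 ± 0.721 TPM). Klhl24 is known for acting on keratins and Klhl21 for a role in cell division. Of 43 other kelch genes 29 were detected, and their median level was 2.21 TPM. The 6 kelch members summed to 773 and 690 TPM, and the 43 others to 403 and 369 TPM. Kbtbd13, the other kelch gene of nemaline myopathy, had 3.79 and 4.94 TPM, below every member.

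**Figure D2:**
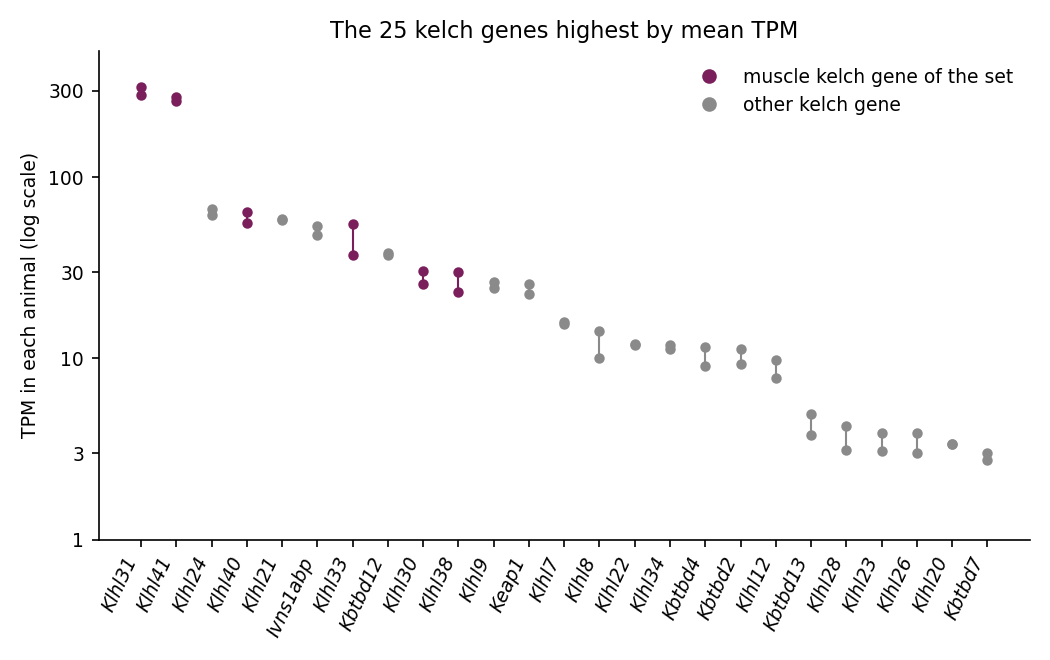
TPM in each animal (log axis) of the 25 kelch genes with the highest mean, ordered by mean; the coloured points are the 6 kelch genes of the set and grey points are other kelch genes, with a line joining the animals. Klhl31 and Klhl41 stand apart from all others, and 4 other kelch genes lie among the remaining members.

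RNA was detected for all listed genes of the ligase and of the binding partners that the members work with, and protein was not measured. All 7 listed genes of the cullin 3 ligase were detected, with Cul3 itself, the scaffold, at 132 and 116 TPM, the modifier Nedd8 at 89.0 and 82.6 TPM and its conjugating enzyme Ube2m at 64.7 and 62.4 TPM. In TPM, Klhl31 and Klhl41 each exceeded Cul3 in both animals, and the 4 lower kelch members were each below it. All 9 listed binding partners were detected. Nebulin (Neb), the giant protein along the thin filament, had 3865 and 3316 TPM. It exceeded Klhl40 by factors of 60.3 and 59.3, and Lmod3 by factors of 121 and 93.4. Tropomyosin 1 (Tpm1), which lines the thin filament, had 11281 and 10079 TPM. Skeletal actin (Acta1), at 23611 and 20056 TPM, exceeded Tmod4 by factors of 66.5 and 64.3. The ratio of Klhl40 to its partner Lmod3 was 2.00 in replicate 1 and 1.58 in replicate 2.

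Other genes of thin filament length and actin turnover had a median level of 68.1 TPM. Of 18 listed, 17 were detected and Nebl, the heart nebulin relative, was the exception. Xirp2, an actin cross-linker, had 573 and 486 TPM. The barbed-end capping subunit Capzb had 242 and 207 TPM, and the muscle cofilin Cfl2 had 206 and 198 TPM. All 11 other nemaline myopathy genes on the list were detected, from Kbtbd13 to Acta1. Of them Acta1, the fast troponin T gene Tnnt3 (15297 and 14050 TPM) and Neb were highest. All 13 listed regulators of muscle transcription were detected, led by Mef2c (201 and 176 TPM), Tead1 (83.9 and 78.3 TPM) and Mef2d (78.7 and 67.7 TPM). Serum response factor (Srf) had 33.0 and 37.0 TPM. As a check of the tissue label, 8 of 8 markers of the muscle fibre were detected, summing to 111685 and 98252 TPM.

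Transcript shares came from a pair of deposited quantifications, the first made from transcriptome alignments and the second directly from reads. A share is the percent of a gene's TPM given to 1 transcript. Of the members 6 have a single annotated transcript and 4 have several. All 4, Tmod4, Tmod1, Klhl40 and Klhl33, had the same top transcript in both animals and by both quantifications. Among 4040 genes with several transcripts and at least 10 TPM this held for 73.5%, and for 92.5% between the animals by the first quantification.

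The size of those shares depended on the quantification. Tmod4-201 took 97.5% of Tmod4 in replicate 1 and 93.1% in replicate 2 by the first quantification, but 30.8% and 41.1% by the second. The second divided most of the rest over Tmod4-202 (24.4% and 10.3%), Tmod4-206, a retained-intron form (19.0% and 20.6%), and Tmod4-204 (18.3% and 19.1%). It also gave 7.51% and 8.55% to Tmod4-205, a noncoding form of 337 bases, from 126 and 147 estimated counts. Tmod4-201 and Tmod4-202 have coding exons of the same lengths, 1035 bases in all, so their division does not change the coding length. Tmod1-201 took 99.1% in both animals by the first quantification and 61.4% and 64.5% by the second, which gave 38.0% and 33.7% to Tmod1-204, a noncoding form of 396 bases. That share rested on 254 and 213 estimated counts, against 7831 and 7862 for Tmod1-201. The Klhl40-201 share was 100% and 99.6% by the first and 83.5% and 81.0% by the second, the remainder being the retained-intron form Klhl40-202. The second quantification subtracts a median of 247 bases from transcripts over 600 bases to obtain effective length and the first 100 bases. The counts assigned to transcripts differed too: in replicate 1 Tmod4-201 had 11093 counts by the first and 4965 by the second, and Tmod4-202 had 0 and 4000. The cause was not tested.

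**Figure D3:**
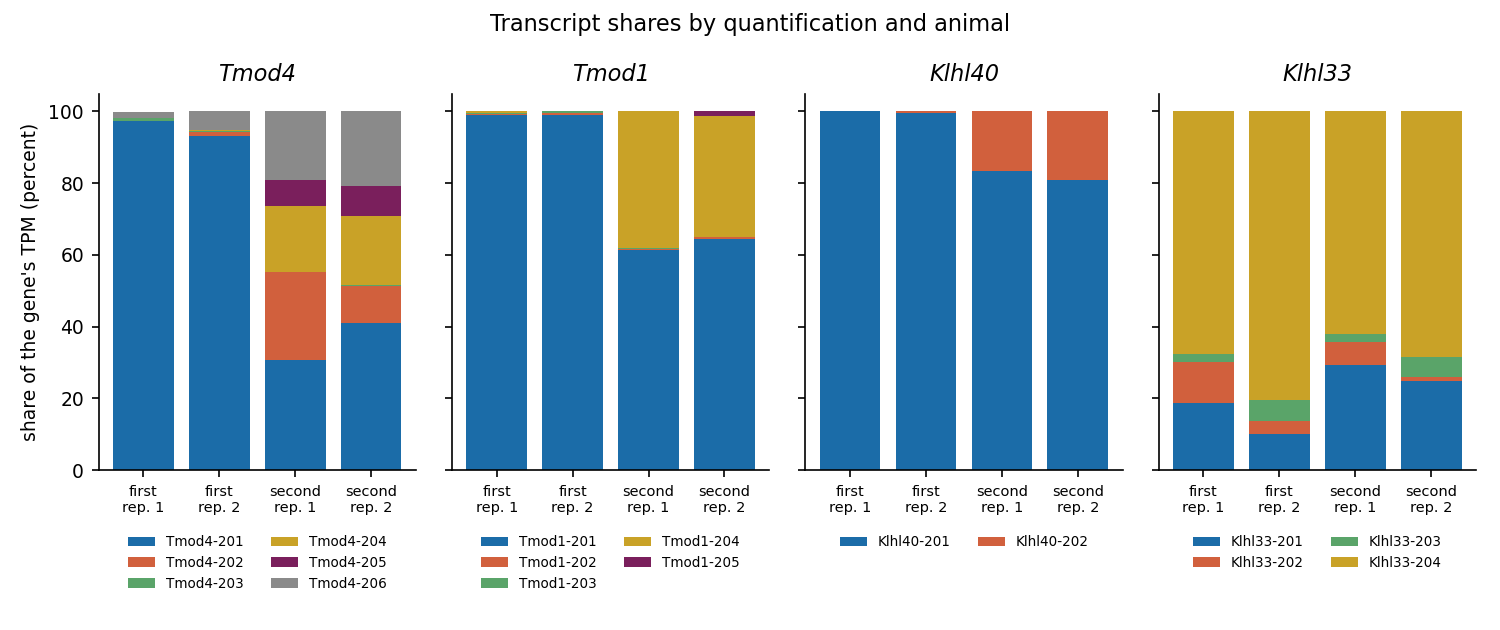
Share of the gene's TPM (percent) given to each annotated transcript of Tmod4, Tmod1, Klhl40 and Klhl33, by the first and second quantification in each animal; colours are transcripts, as keyed under each panel. Tmod4-201 holds over 93% by the first quantification and at most 41.1% by the second, while Klhl33-204 holds over 61% in all 4 bars.

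Klhl33 showed a difference between the animals in its transcripts. The long form Klhl33-204 (5513 bases, 2379 coding) stood at 67.5% in replicate 1 and 80.3% in replicate 2 by the first quantification, and at 61.9% and 68.5% by the second. The shorter Klhl33-201 stood at 18.8% and 10.0% by the first and 29.4% and 24.8% by the second. Klhl33-202 stood at 11.4% and 3.79% by the first and 6.24% and 1.14% by the second. Both shorter coding forms thus had the lower share in replicate 2 by each quantification. The retained-intron form Klhl33-203 had the higher share in replicate 2, with 2.24% and 5.87% by the first and 2.47% and 5.58% by the second. Shares within a gene have a fixed total and both quantifications read the same libraries, so these are not separate observations. Klhl33-202 splices out 93 bases that Klhl33-204 keeps, after base 50896803 of chromosome 14. The stretch around that junction is shown because these letters tell the forms apart, with the bases after the junction in capitals.
Klhl33-202: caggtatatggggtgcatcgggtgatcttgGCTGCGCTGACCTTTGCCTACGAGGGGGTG
Klhl33-204: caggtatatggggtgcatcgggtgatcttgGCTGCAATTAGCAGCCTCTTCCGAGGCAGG
The effective length of the gene, which weights its forms by these shares, was 4128 bases in replicate 1 and 4650 bases in replicate 2. Klhl33 counts were 6373 and 5585, a ratio of replicate 2 to replicate 1 of 0.876, whereas the ratio of its TPM was 0.679. The gap between these ratios comes from the division of reads among the forms and from the TPM total, not from the number of reads.

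Differences between the animals were read from counts scaled by TMM, as the log2 ratio of replicate 2 over replicate 1. On the TPM scale 8 of 10 members were lower in replicate 2. The median log2 ratio of TPM over all tested genes was -0.17, so most of them were lower in replicate 2 as well. The sum of all nuclear protein-coding TPM was lower there too, 0.897 of that in replicate 1, while 7SL RNA held 27.0% of TPM in replicate 1 and 33.6% in replicate 2. On the TMM scale 4 members were higher in replicate 2 and 6 in replicate 1. The median member log2 ratio was -0.024, and the median over all 11125 genes tested was -0.0024. Without regard to sign the median was 0.082 for members and 0.12 for all genes, which were not matched to the members for count.

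Members past a size threshold were counted beside all tested genes. A gene was counted as different where the higher animal exceeded the lower by at least 25%. Of the 10 genes 1 met this, Lmod3, and 0 passed 2-fold. Of all tested genes 17.6% passed 25% in either direction, 6.59% passed it as higher in replicate 2, and 1.39% passed 2-fold. Members carry more counts than most genes, and among the 2221 genes with at least the mean count of Klhl38, the lowest member by count, 5.22% passed 25%. A count of 1 in 10 is near these background shares. Among the genes around the members, 0 of 7 ligase genes and 1 of 9 binding partners passed 25%, the partner being the heart actin Actc1 (log2 ratio 0.58). Of the nemaline myopathy genes 2 of 11 did, Tnnt1 (0.33) and Kbtbd13 (0.55), both higher in replicate 2. Of the tested actin turnover genes 1 of 17 did, the actin-severing Dstn (-0.51), and of the regulators 1 of 13, Myog (-0.49). Of 32 other kelch genes tested 1 passed it as higher in replicate 2 and 6 as higher in replicate 1.

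**Figure D4:**
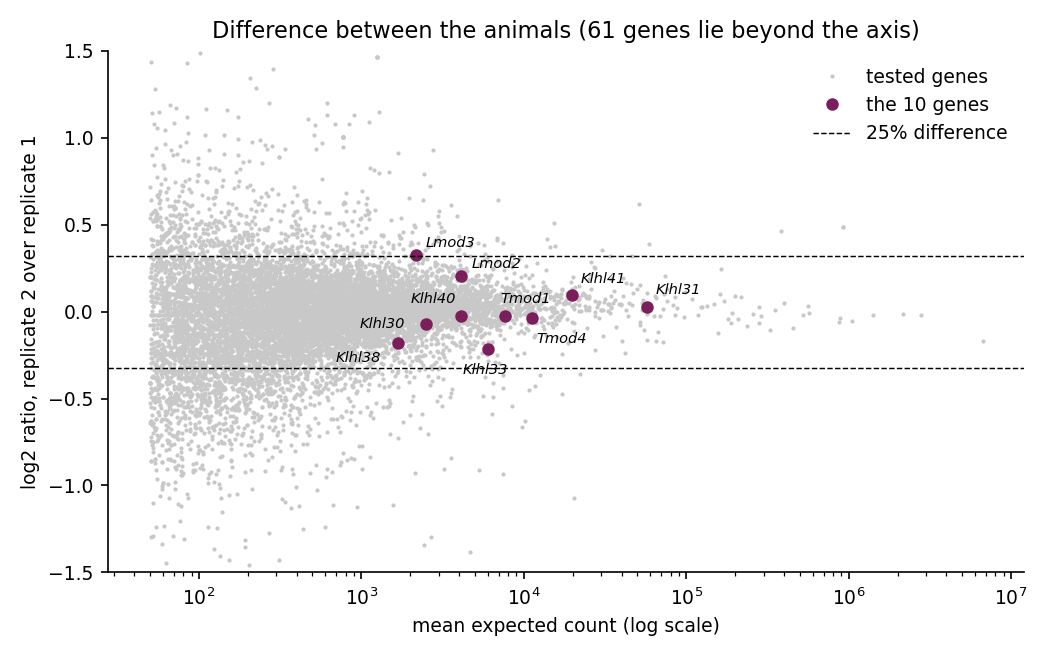
The log2 ratio of replicate 2 over replicate 1 (TMM scaling) against mean expected count (log axis) for all 11125 tested genes in grey and the 10 members in colour; dashed lines mark a 25% difference. Members lie between -0.21 and 0.32, with Lmod3 on the upper line.

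Lmod3 had 1900 counts in replicate 1 and 2416 in replicate 2, a log2 ratio of 0.32 (95% interval from counting error alone 0.24 to 0.41), which lies just past the 25% threshold. Lmod2 had 3797 and 4445 counts, a log2 ratio of 0.20 (0.14 to 0.27). Slow fibre markers were also higher in replicate 2, 7 of 7 with a median log2 ratio of 0.29. Of these 2 passed 25%, against 6.59% of all tested genes in that direction. The part of slow fibres in the leiomodin difference was not tested. At the other end, Klhl33 had a log2 ratio of -0.21 (-0.26 to -0.16) and Klhl38, with 1772 and 1587 counts, -0.18 (-0.28 to -0.08). For Tmod4, Tmod1, Klhl40 and Klhl30 the counting interval took in 0. Klhl41 (0.10) and Klhl31 (0.03) lay above 0 by intervals that excluded it, at depths of 19006 counts and more. These intervals leave out variation between animals, which 2 libraries measure poorly.

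Scaling to the ERCC spike-ins moved the median of all tested genes to -0.12 and the members with it. By that scaling 2 members, Lmod2 (0.08) and Lmod3 (0.20), were above 0. Klhl31 and Klhl41 changed sign, to -0.10 and -0.03. Lmod3 lay under the 25% threshold, and Klhl33, at -0.33, passed it in the other direction. By the second quantification with TMM scaling no member passed 25%, and Lmod3 stood at 0.31. The leiomodins were the highest of the members and Klhl33 and Klhl38 the lowest under all 3 scalings.

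**Figure D5:**
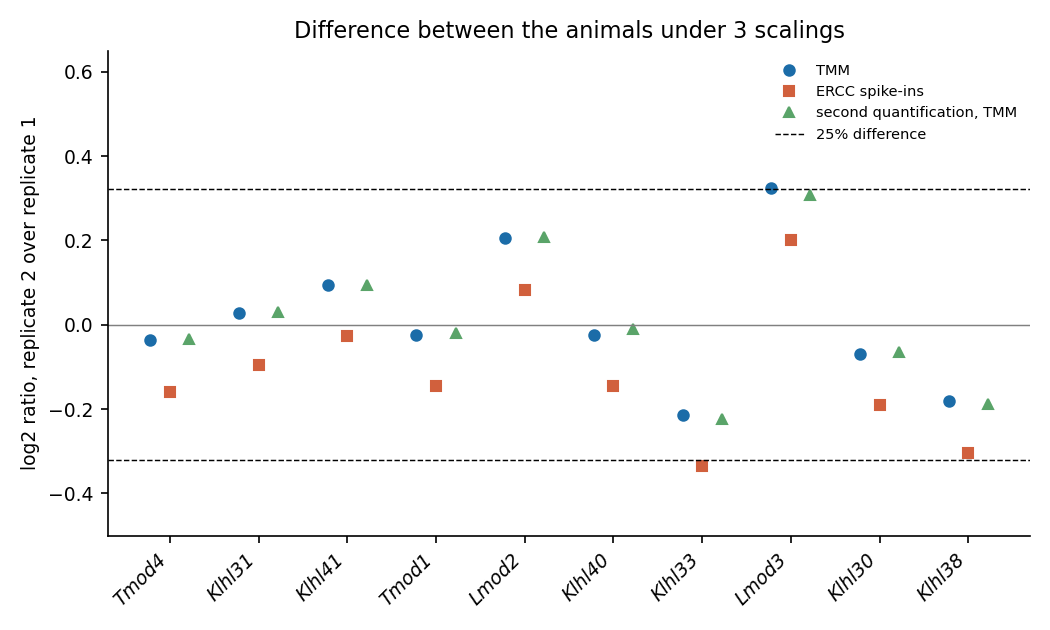
The log2 ratio of replicate 2 over replicate 1 of each member under TMM scaling, ERCC spike-in scaling and the second quantification with TMM; dashed lines mark a 25% difference and the grey line 0. Spike-in scaling lowers all members by a like amount, which takes Lmod3 from 0.32 to 0.20 and Klhl33 from -0.21 to -0.33.

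Several members share ground with other genes. Tmod1 shares 1287 exonic bases with Tstd2 on the opposite strand, which had 4.49 and 3.67 TPM. Klhl38 shares 1446 exonic bases with an antisense RNA (Gm15943) that had 1 and 6 counts, and Klhl40 shares 540 with Gm47108, which had 3 and 0 counts. The kit keeps strand, per the labels, but the strand setting of the counting is not given in the sources used here. Of the neighbours that do not overlap, Hhatl ends 197 bases beyond the end of Klhl40 on the opposite strand and had 76.3 and 66.0 TPM.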

How the data were processed

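Per the labels, 300 ng of total RNA per sample was depleted of ribosomal RNA and made into strand-specific libraries with ERCC spike-ins. The authors deposited, per library, gene and transcript tables on mm10 and GENCODE M21. Which programs made them is not given in the sources used here. Expected counts, as deposited, estimate the reads of each gene and are not normalized. The deposited TPM divide these by effective length and scale each library to 1 fixed total, so abundant short RNAs lower all other TPM. Percent values deposited for transcripts are shares within a gene. Deposited posterior SDs of the counts were read too, and credibility bounds were not used.

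Libraries held 42605802 and 43301418 expected counts of mouse genes. The limit for a gene at 0 is 3 counts, which is 0.0704 CPM in replicate 1 and 0.0693 CPM in replicate 2. Intervals and such floors cover counting error only. Expected counts were rounded for edgeR 4.0.16 (R 4.3.3), scaled by TMM, and log2 ratios were taken with a prior count of 2 over genes with a mean count of at least 50. With 2 samples of 1 group no test was run. The ratio step was tested on simulated data. Gene TPM of the second quantification are sums over transcripts.

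The members, gene lists and named genes (all members, plus the 3 highest of each list) were chosen with earlier results of these data known. Hhatl, Flnc, Nrap, Kbtbd12, Kbtbd13, Srf, Nebl, Actc1, Tnnt1, Dstn and Myog, single marker genes, the neighbours that overlap members and the background share at member depth were added after values were seen. Of 44 other kelch symbols 43 matched, and Mrtfa and Mrtfb were matched by older symbols. Protein identity was not computed, and coding exons and whole coding sequences were compared in its place. The alternatives were DESeq2 1.42.0 size factors, spike-in and library-total scaling, a prior count of 0.5, a count minimum of 10 or none, posterior mean TPM, the second quantification, thresholds of 0.5 and 5 TPM, rescaling over protein-coding genes, leaving out each animal and, chosen after seeing the data, counts over the length of the top transcript. Alleles of origin in these hybrids were not analysed here.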

Additional observations from a re-analysis of the deposited data

How the results depend on the processing

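Detection of the 10 members held at 0.5 and 5 TPM, by the second quantification and posterior mean TPM, after rescaling and without either animal. Rescaled over nuclear protein-coding genes, the summed level was 2744 TPM in place of 1256 TPM. The ratio of Tmod4 to Tmod1 was 3.98 (3.96 to 3.99 leaving out 1 animal), 3.83 by the second quantification and 3.93 from counts over the length of the top transcript. The ratio of Klhl41 to Klhl40 was 4.54 (4.35 to 4.72) and 3.98 by the second quantification. That of Lmod3 to Lmod2 was 0.463 (0.444 to 0.482), with 0.460 by the second. Summed TPM ran from 1190 to 1322 leaving out 1 animal. Separate neighbours numbered 7, or 8 by the second quantification, by posterior mean TPM and after rescaling. Of the members 0 passed a 25% difference by the second quantification, against 1 otherwise, which was Klhl33 under spike-in scaling and Lmod3 under the other settings; 0 passed 2-fold in any setting. The median member log2 ratio was -0.146 under spike-in scaling and between -0.025 and -0.014 otherwise. Counting only members with several transcripts, 4 of 4 kept their top transcript. The mean share of Tmod4-201 was 95.3% by the first quantification and 36.0% by the second. The cause was not tested for the values that moved, other than the smaller number of genes counted there. With 1 animal no log2 ratio and no overlap of neighbours exists, so those were not run. No paired analysis was possible because both samples belong to a single group. Depth was at least 1587 counts for each member, yet the counting interval of Lmod3 spans the 25% threshold, and 2 animals limit the spread.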
